A study of Mus musculus with 2 samples.

Results

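Spi1, Cebpa, Irf4, Irf8, Maf, Zeb2, Batf3 and Bhlhe40 are 8 transcription factor genes that act in the myeloid lineage, and they were taken by symbol from the 32285 genes in the count matrices of 2 single-cell libraries of mouse colon lamina propria. All 8 were found in both matrices, once each. Their UMIs (unique molecular identifiers, each standing for 1 captured transcript) were summed over the cells of marker gates in each library. NK and T cells of the same libraries served as the background.

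Myeloid cells are built by a small set of DNA-binding proteins. PU.1, the product of Spi1, opens myeloid enhancers in all of these lineages, and C/EBPα, the product of Cebpa, works with it in granulocyte and monocyte precursors. IRF8 with BATF3 sets up type 1 conventional dendritic cells (cDC1), the cross-presenting dendritic cells, whereas IRF4 acts in type 2 cells (cDC2). Zeb2 encodes a repressor needed for monocytes, macrophages and cDC2, c-MAF (Maf) drives genes of mature tissue macrophages such as those of complement C1q, and BHLHE40 restrains Il10 and is used by tissue macrophages and lymphocytes.

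The study compared RUNX3 fl/fl-Lyz2-Cre mice, which lack Runx3 in cells that use the Lyz2 promoter, with RUNX3 fl/fl littermates. GEO holds 1 library titled Runx3_fl and 1 titled Runx3, both labelled as cd11b+ cells of gut lamina propria. The titles do not state the Cre allele, so the libraries are called here by their titles only, and no genotype was assigned to either. The paper describes 8-week-old male mice, although Xist, given below, was found in the library titled Runx3_fl. Both libraries are pools of colon tissue on the 10x 3′ kit, so that animals cannot be told apart within a library. Lyz2-Cre also acts in neutrophils and is not restricted to macrophages. With 1 library in each group there is no replicate error, no test was possible, and each interval below is an exact Poisson or binomial interval at 95% that covers counting error only.

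The library titled Runx3_fl held 12968 barcodes, of which 11885 had 200 to 6000 genes and at most 15% mitochondrial UMIs, with a median of 9573 UMIs. The library titled Runx3 held 8953 barcodes, of which 8167 were kept, with a median of 5731 UMIs. The 2 libraries shared 37 barcodes. Runx3 transcripts were not lower in the macrophage gate of the library titled Runx3, at 246 CPM (UMIs of the gene per 1000000 UMIs of the gate) against 152 CPM in the library titled Runx3_fl, and 3′ counts do not show whether the transcripts are intact. The kept cells of the library titled Runx3_fl held 28866 UMIs of the X inactivation transcript Xist against 12 in the other, while the Y-linked gene Ddx3y stood at 127 and 197 CPM. The libraries thus differ in Xist, and Xist and Y-linked transcripts are both present in the library titled Runx3_fl, although the mice are described as male. The part of this in the differences below was not tested.

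Cells were assigned by 2 or more UMIs of each gate gene. The gates were Ly6c2 with Ccr2 for monocytes, Csf1r with C1qa for macrophages, Xcr1 for cDC1, Cd209a for cDC2, Csf3r for neutrophils, Ncr1 for NK cells and Cd3e for T cells. Cells in both the monocyte and the macrophage gate formed a class of their own, called the double gate. In the order Runx3_fl and Runx3, the monocyte gate held 769 and 679 cells, the double gate 137 and 119, the macrophage gate 163 and 170, the cDC2 gate 143 and 114, the neutrophil gate 656 and 643, the NK gate 555 and 52, and the T gate 1915 and 242. The cDC1 gate held 192 cells in the library titled Runx3_fl and 16 in the library titled Runx3, too few for a comparison between libraries. Itgam, which encodes CD11b, stood at 150 and 200 CPM in monocytes but at 39.6 and 8.75 CPM in the T gate, whose cells are many for a sample labelled cd11b+. A gate is a rule on a few transcripts and not a full cell type call, and 45.3% and 46.7% of the kept cells passed no gate.

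Markers that were not used for gating were highest in their own gate for cDC1 (5 of 5 in both libraries), neutrophils (6 of 6), NK cells (5 of 5) and T cells (5 of 5). The macrophage markers were highest in the macrophage or the double gate for 7 of 8 in the library titled Runx3_fl, where Fcgr1 and Mertk led in the double gate. In the library titled Runx3, 8 of 8 were highest in the macrophage gate. The monocyte gate was weaker, with 4 of 6 and 3 of 6, where F10, highest in the double gate, was not counted. The cDC2 gate had 3 of 5 in each. The monocyte gate of the library titled Runx3_fl also carried 858 CPM of the 5 NK markers and 234 CPM of the 5 T markers, against 140 and 41.8 CPM in the library titled Runx3, with none of these markers at 0 in either. The neutrophil gate of the library titled Runx3 carried 485 CPM of the granule gene Elane, which had no UMI in the other, and 42926 CPM of S100a8 against 4130 CPM. Differences between the libraries in these 2 gates are given below also with stricter rules. Csf1r was required in the monocyte gate, and neutrophil-gated cells with a UMI of Elane, Mpo or Cebpe were left out. These rules did not remove all NK and T markers or the S100a8 difference.

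The promoters are shown for 4 of the genes because Irf8 and Irf4 separate the dendritic cell gates and because Cebpa and Zeb2 differed in opposite directions between the libraries. RefSeq promoter windows (GRCm38.p6) matched 5 of the 8 genes, Cebpa, Irf4, Irf8, Zeb2 and Batf3, and Spi1, Maf and Bhlhe40 had no entry in the table used. Each line gives the 250 bases before the start site, 5′ to 3′ on the gene's strand, for Irf8 at chr8:120736108-120736357 (+), Irf4 at chr13:30748983-30749232 (+), Cebpa at chr7:35119043-35119292 (+) and Zeb2 at chr2:45117443-45117692 (−). Capitals mark a TATA box in the first 3 and a C/EBP site in the last.
Irf8: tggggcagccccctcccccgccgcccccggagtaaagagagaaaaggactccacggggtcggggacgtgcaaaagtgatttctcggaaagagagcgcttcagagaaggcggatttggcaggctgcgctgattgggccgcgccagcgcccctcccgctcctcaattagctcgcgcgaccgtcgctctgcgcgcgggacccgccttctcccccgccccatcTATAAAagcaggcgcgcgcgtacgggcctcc
Irf4: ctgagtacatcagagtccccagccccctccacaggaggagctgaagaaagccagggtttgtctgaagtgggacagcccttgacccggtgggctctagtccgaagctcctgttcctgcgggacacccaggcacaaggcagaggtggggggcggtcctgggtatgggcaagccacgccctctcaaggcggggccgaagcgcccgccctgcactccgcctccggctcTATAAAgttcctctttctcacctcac
Cebpa: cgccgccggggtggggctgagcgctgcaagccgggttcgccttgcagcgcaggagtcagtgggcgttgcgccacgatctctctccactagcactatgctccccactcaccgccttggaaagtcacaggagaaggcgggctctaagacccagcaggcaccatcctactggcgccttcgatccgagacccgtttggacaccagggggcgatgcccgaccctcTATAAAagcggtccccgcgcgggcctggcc
Zeb2: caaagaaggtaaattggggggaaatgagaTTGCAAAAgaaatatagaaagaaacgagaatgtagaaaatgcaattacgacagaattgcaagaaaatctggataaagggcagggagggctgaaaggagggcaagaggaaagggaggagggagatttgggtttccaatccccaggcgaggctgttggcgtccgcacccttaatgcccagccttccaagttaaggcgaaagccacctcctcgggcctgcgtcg

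The TATA box letters TATAAA began 31 bases before the start of Irf8, 26 before that of Irf4 and 30 before that of Cebpa, and stood in 12.4% of the 32851 RefSeq windows of 250 bases when both strands were read. The C/EBP letters TTGCNNAA began 221 bases before the start of Zeb2 and stood in 9.56% of windows. The Batf3 window held the E-box CACGTG, the letters read by BHLHE40, 247 bases before its start, as did 6.02% of windows. A later Irf8 start, 2281 bases into the gene, had the E-box CACCTG read by ZEB2 at 205 bases before it (17.2% of windows). The last of the 4 Zeb2 starts had the AP-1 letters TGACTCA at 189 and 132 bases before it (4.46%). The letters GAGGAAGT for PU.1 (2.44%), GAAANNGAA for interferon response factors (7.13%) and TGCTGAC for MAF (3.81%) were in none of the windows of these 5 genes. TATAAA was added to the search after the windows had been seen, and a match describes the letters only.

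The 8 genes differ widely in structure (GENCODE M21, GRCm38). Zeb2 spans 133.764 kb of chromosome 2 (44983632 to 45117395, minus strand) with 14.9% of it exonic, and Spi1 lies on the same chromosome (91082390 to 91115756, plus strand). Cebpa is 2.636 kb on chromosome 7 (35119293 to 35121928, plus strand) and has no intron. Irf8 (120736358 to 120756694, plus strand) and Maf (115682942 to 115707794, minus strand) are on chromosome 8, Irf4 is on chromosome 13 (30749226 to 30766976, plus strand), Batf3 on chromosome 1 (191097847 to 191108945, plus strand) and Bhlhe40 on chromosome 6 (108660629 to 108666925, plus strand). All 8 are protein-coding. Irf8 shares its strand and part of its span with Gm20388, so reads there are uncertain. Levels are compared below between cells for 1 gene, and not between genes, since 3′ counts differ in yield from gene to gene.

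Spi1, which encodes PU.1, separated the myeloid gates from lymphocytes and hardly differed among them. In the library titled Runx3_fl its level was 212 CPM in the monocyte gate, 230 in the double gate, 219 in the macrophage gate, 230 in cDC1, 228 in cDC2 and 268 in neutrophils. In the library titled Runx3 the same gates stood at 332, 320, 301, 236, 295 and 372 CPM. The NK gate had 5.84 and 13.2 CPM and the T gate 7.97 and 29.2 CPM. The macrophage gate was thus 27.5-fold above T cells in the library titled Runx3_fl and 10.3-fold above in the library titled Runx3. Over the 2 libraries the ranges of all myeloid gates overlapped with their neighbours in the order of levels, from neutrophils at the top to cDC1 at the bottom, and the gap to the migratory dendritic cell gate (Ccr7 with Fscn1; 88.2 and 194 CPM) was the first without overlap.

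Cebpa was highest in the double and macrophage gates. Its level in the library titled Runx3_fl was 9.45 CPM in monocytes, 20.2 in the double gate, 18.8 in macrophages, 13.1 in neutrophils, 8.76 in cDC2 and 5.17 in cDC1. In the library titled Runx3 the values were 47.8, 54.6, 58.4, 29.5, 21.3 and 9.33 CPM. Macrophages lay 1.99-fold above monocytes in the library titled Runx3_fl (log2 0.92, interval 0.44 to 1.53), and in the library titled Runx3 the difference of 0.28 had an interval that held 0 (−0.05 to 0.61). T cells had 0.586 and 6.25 CPM.

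**Figure D1:**
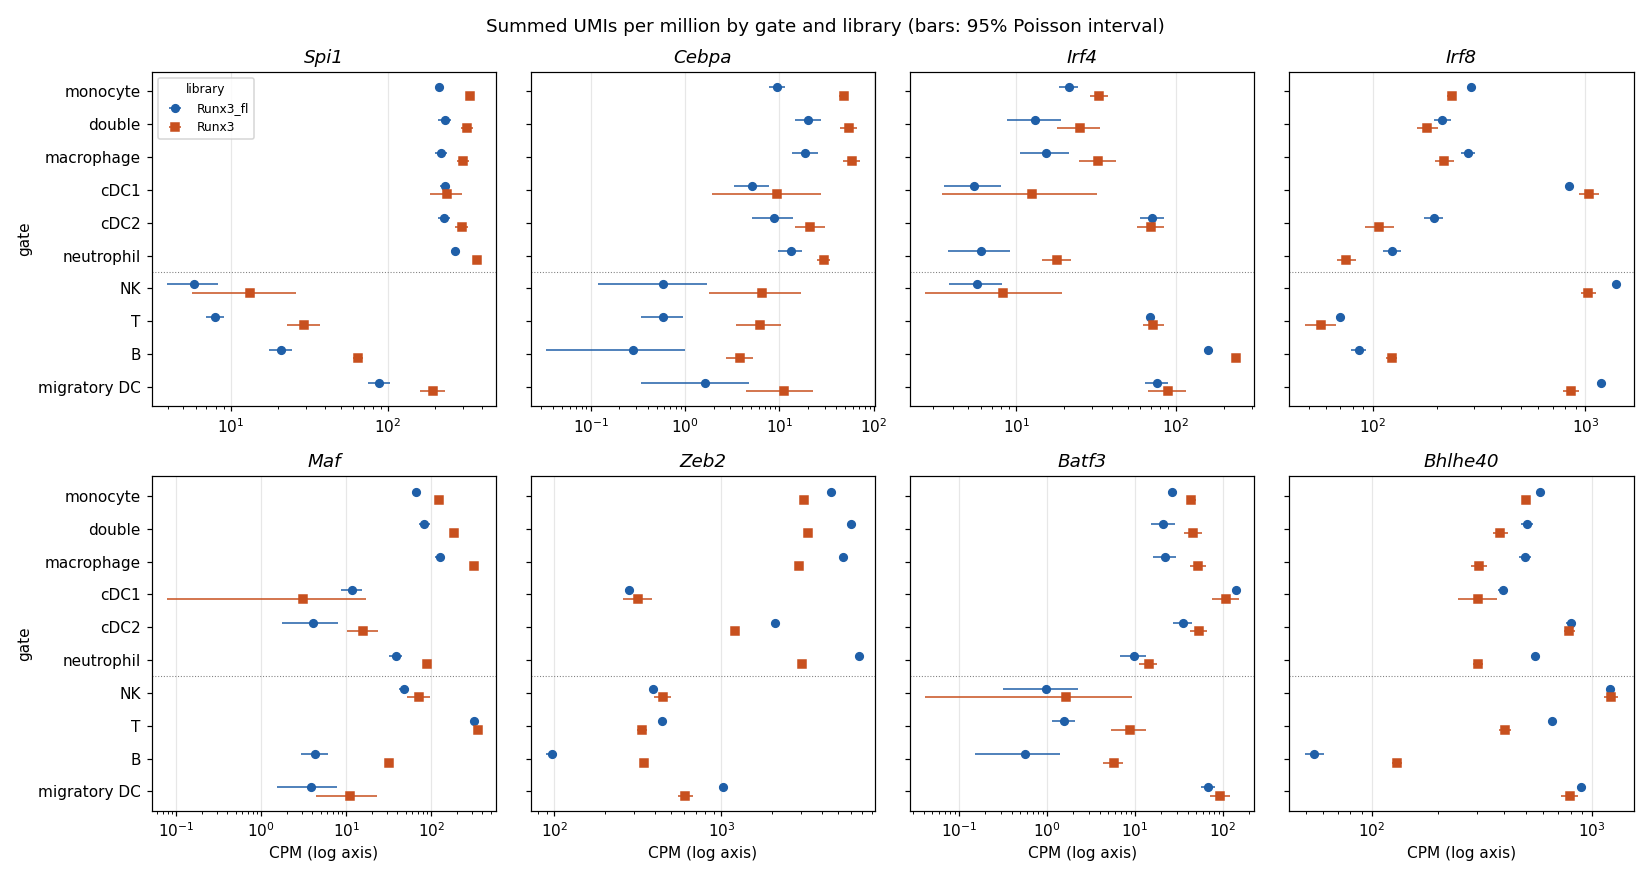
Level of each gene (CPM, log axis) in 10 gates of the libraries labelled Runx3_fl (circles) and Runx3 (squares), with 95% Poisson intervals. A dotted line parts the 6 main myeloid gates from the other gates. Spi1 sits far lower in NK and T cells than in any main myeloid gate, and Cebpa and Batf3 far lower than in their highest myeloid gate. Irf8 and Bhlhe40 are high in NK cells and Maf in T cells.

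Irf8 and Irf4 ran in opposite directions between the dendritic cell gates. Irf8 stood at 833 CPM in cDC1 and 193 CPM in cDC2 of the library titled Runx3_fl, and at 1045 and 107 CPM in the library titled Runx3. Irf4 stood at 5.39 CPM in cDC1 and 71.1 CPM in cDC2 of the first library, and at 12.4 and 69.8 CPM in the second. The cDC1 gate was therefore 4.32-fold and 9.76-fold above cDC2 for Irf8 and 13.2-fold and 5.61-fold below it for Irf4. For both genes and in both libraries the counting intervals of these contrasts held the same sign, although the cDC1 value of the library titled Runx3 rests on 16 cells and 4 Irf4 UMIs.

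The number of Irf8 UMIs for each Irf4 UMI puts the gates on 1 scale. It was 155 in cDC1 (interval 105 to 239) and 2.71 in cDC2 (2.22 to 3.32) of the library titled Runx3_fl, and 84.0 (32.5 to 310) and 1.53 (1.19 to 1.98) in the library titled Runx3. Monocytes lay between them at 13.6 and 7.08, as did macrophages at 18.4 and 6.66. With Csf1r required in the monocyte gate, the monocyte quotient was 23.8 (18.2 to 31.6) and 6.20 (5.14 to 7.54). The quotient was lower in the library titled Runx3 in every gate of 20 or more cells, with intervals that did not overlap in the monocyte, double, macrophage, cDC2, neutrophil and migratory dendritic cell gates. This did not hold in monocytes and T cells when cells were thinned to 2000 UMIs before gating. The log2 ratios, Runx3 over Runx3_fl, were then −0.81 for Irf4 and −0.15 for Irf8 in monocytes, and −2.25 and −1.89 in T cells. After this thinning the monocyte gate held 198 and 336 cells and the T gate 457 and 43.

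Neither gene was particular to myeloid cells. Irf8 was higher in NK cells (1389 and 1034 CPM) than in any myeloid gate of the library titled Runx3_fl, and in the library titled Runx3 the NK and cDC1 intervals overlapped. Migratory dendritic cells had 1184 and 856 CPM of Irf8. Among gates of 20 or more cells Irf4 was highest in the B gate (Cd79a; 160 and 239 CPM), whereas the plasmacytoid dendritic cell gate (Siglech), with 4 cells in each library, had 213 and 270 CPM. T cells, at 69.1 and 72.5 CPM, matched cDC2 within overlapping ranges. Cells with both transcripts were 7.29% of the cDC1 gate and 24.5% of the cDC2 gate in the library titled Runx3_fl, at median depths of 24242 and 13544 UMIs.

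**Figure D2:**
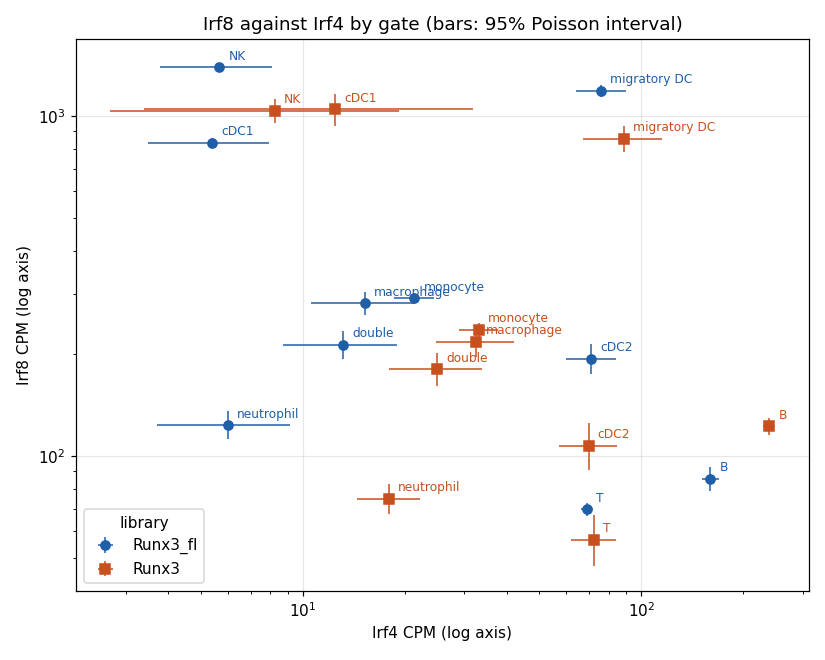
Irf8 level against Irf4 level (both CPM, log axes) for each gate of the libraries labelled Runx3_fl (circles) and Runx3 (squares), with 95% Poisson intervals. cDC1 and NK cells lie at the upper left, migratory dendritic cells at the upper right, cDC2, T and B cells at the lower right, and monocytes and macrophages in between.

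Batf3, the partner of IRF8 in cDC1, was highest in that gate in both libraries. Its level was 140 CPM in cDC1, 35.0 in cDC2, 26.8 in monocytes, 22.0 in macrophages and 9.69 in neutrophils of the library titled Runx3_fl. The library titled Runx3 had 109, 53.2, 44.0, 52.7 and 14.3 CPM. The cDC1 gate was 4.01-fold and 2.05-fold above cDC2. NK cells had 0.974 and 1.65 CPM, and T cells 1.55 and 8.75 CPM. Both Irf8 and Batf3 were detected in 83.3% of the cDC1 cells of the library titled Runx3_fl and in 0.721% of its NK cells, although NK cells have more Irf8; the median depths were 24242 and 8188 UMIs.

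Genes known to depend on IRF8 and BATF3 followed the cDC1 gate: Clec9a stood at 154 and 121 CPM there against 19.1 and 10.6 CPM in cDC2, and Tlr3, a sensor of double-stranded RNA, at 89.0 and 80.9 against 4.64 and 7.32 CPM. Among targets of IRF4, the lectin gene Mgl2 stood at 45.8 and 109 CPM in cDC2 and at 0.646 and 0 CPM in cDC1. Clec10a stood at 162 and 98.4 CPM in cDC2 and at 4.09 and 3.11 CPM in cDC1. The other listed targets parted the gates less. Pdcd1lg2 was at 73.7 and 27.3 CPM in cDC2 and 66.2 and 15.6 CPM in cDC1, and Ccr7 at 470 and 220 against 154 and 106 CPM. Of these genes Clec9a, Mgl2 and Clec10a were also among the markers used to check the gates.

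Zeb2 divided monocytes, macrophages and neutrophils from the other gates. In the library titled Runx3_fl it stood at 4521 CPM in monocytes, 5935 in the double gate, 5329 in macrophages, 6644 in neutrophils, 2098 in cDC2 and 279 in cDC1. In the library titled Runx3 these were 3109, 3286, 2910, 3031, 1200 and 317 CPM. cDC1 lay 7.53-fold and 3.78-fold below cDC2. NK cells (392 and 444 CPM) and T cells (441 and 335 CPM) stood above cDC1 in the library titled Runx3_fl. The spread over the 2 libraries was wide enough that the order of neutrophils, the double gate, macrophages and monocytes was not resolved, whereas the ranges of cDC2 and migratory dendritic cells stood apart from those of their neighbours.

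Maf was higher at each step from the monocyte to the macrophage gate in each library. When cells were thinned before gating, macrophages were not above monocytes in the library titled Runx3_fl. The double gate then held 0 and 2 cells, so its steps could not be checked in that setting. It stood at 66.9, 82.7 and 125 CPM in the monocyte, double and macrophage gates of the library titled Runx3_fl, and at 125, 185 and 318 CPM in the library titled Runx3. The macrophage gate was 1.87-fold and 2.55-fold above the monocyte gate, on the log2 scale by 0.89 (interval 0.70 to 1.11) and 1.34 (1.19 to 1.50). The double gate was between them each time, with intervals of both steps above 0. With cells thinned to 2000 UMIs before gating, the macrophage value over monocytes in the library titled Runx3_fl was −0.17 in place of 0.89, and that in the library titled Runx3 was 0.90. The macrophage gate then held 30 and 97 cells and the monocyte gate 198 and 336. Dendritic cells had little Maf, at 11.6 and 3.11 CPM in cDC1 and 4.12 and 16.0 CPM in cDC2. T cells, in which c-MAF acts in helper and regulatory subsets, had more than any myeloid gate, at 318 and 355 CPM.

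Bhlhe40 ran the other way over these gates. Its level was 580, 508 and 496 CPM in the monocyte, double and macrophage gates of the library titled Runx3_fl and 500, 384 and 308 CPM in the library titled Runx3. Macrophages lay below monocytes by log2 −0.22 (interval −0.32 to −0.13) and −0.70 (−0.83 to −0.57). The step from the double gate to macrophages in the library titled Runx3_fl had an interval that held 0 (−0.03, −0.16 to 0.09), and with Csf1r required in the monocyte gate macrophages lay below monocytes there by −0.06. Among the 6 main myeloid gates cDC2 was highest, at 805 and 789 CPM. Migratory dendritic cells stood at 895 and 794 CPM, above cDC2 by log2 0.15 (0.05 to 0.25) in the library titled Runx3_fl, and NK cells were higher still, at 1211 and 1221 CPM.

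**Figure D3:**
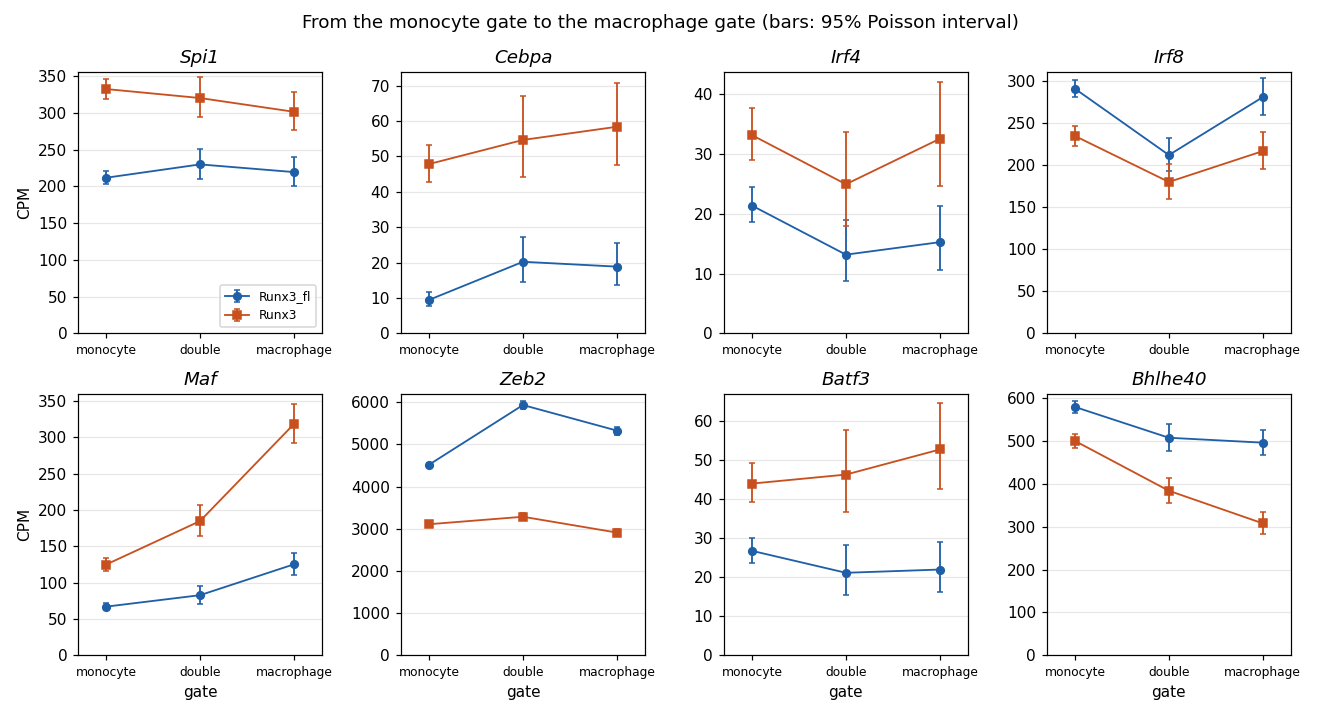
Level of each gene (CPM, axes from 0) in the monocyte, double and macrophage gates of the libraries labelled Runx3_fl (circles) and Runx3 (squares), with 95% Poisson intervals. In both libraries Maf is higher at each step and Bhlhe40 is lower in macrophages than in monocytes, Zeb2 peaks in the double gate, and Irf8 is lowest there.

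The remaining genes gave no common direction between the macrophage and monocyte gates that held against counting error in both libraries. The Spi1 difference was 0.05 in the library titled Runx3_fl and −0.14 in the library titled Runx3, that of Zeb2 0.24 and −0.10, that of Batf3 −0.27 and 0.26, that of Irf8 −0.05 and −0.11, and that of Irf4 −0.46 and −0.03. For Batf3, Irf8 and Irf4 the intervals held 0 each time. With Csf1r required in the monocyte gate, the differences in the library titled Runx3_fl became 0.58 for Irf4, −0.15 for Zeb2, −0.16 for Spi1, 0.19 for Batf3 and 0.26 for Irf8, so the sign of each turned, as did those of Irf8 (0.14) and Irf4 (0.03) in the library titled Runx3. Irf8 dipped in the double gate, to 212 and 180 CPM, below both neighbours in both libraries.

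Among the 6 main myeloid gates, which leave out migratory dendritic cells, the highest was the same in both libraries for 6 of the 8 genes: neutrophils for Spi1, cDC2 for Irf4 and Bhlhe40, cDC1 for Irf8 and Batf3, and macrophages for Maf. It differed for Cebpa (the double gate, then macrophages) and Zeb2 (neutrophils, then the double gate). For 4 genes, Spi1, Cebpa, Zeb2 and Batf3, that gate stood above both NK and T cells in both libraries. Migratory dendritic cells were above cDC2 for Irf4 (76.1 and 88.9 CPM), with overlapping intervals, and above cDC1 for Irf8 in the library titled Runx3_fl. Irf4 in the library titled Runx3, Irf8 in the library titled Runx3_fl, and Maf and Bhlhe40 in both did not stand above these lymphocytes.

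The share of cells with a UMI was read with each cell thinned to 2000 UMIs. Spi1 was found in 33.1% of macrophages of the library titled Runx3_fl (interval 26.0 to 40.9; 85.9% without thinning) and 43.6% of the library titled Runx3 (35.8 to 51.5; 82.4%), with 0 and 7 shallower cells left out. In T cells, which do not need PU.1, it was found in 1.31% and 3.32% (5.48% and 15.3% without thinning). Maf was found in 17.2% (11.7 to 23.9) and 39.3% (31.7 to 47.2) of macrophages, or 48.5% and 64.7% without thinning. Dendritic cells, with little Maf, had it in 0.699% and 5.41% of cDC2 after thinning.

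Batf3 was found after thinning in 23.3% of cDC1 (17.5 to 30.0; 84.9% without thinning) and 3.07% of macrophages of the library titled Runx3_fl, and in 0 of 555 NK cells, which had it in 0.721% without thinning. Cebpa was found in 3.68% of macrophages of the library titled Runx3_fl (1.36 to 7.84) and 8.59% of the library titled Runx3 (4.78 to 14.0), and at this depth most cells that use it would give no UMI. Some thinned shares go against their CPM between the libraries, and no order was read from them. Examples are Zeb2 in monocytes (85.5% and 90.9%), Maf in T cells (35.5% and 28.2%) and in NK cells (8.65% and 5.77%), and Batf3 in cDC2 (6.99% and 6.31%).

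**Figure D4:**
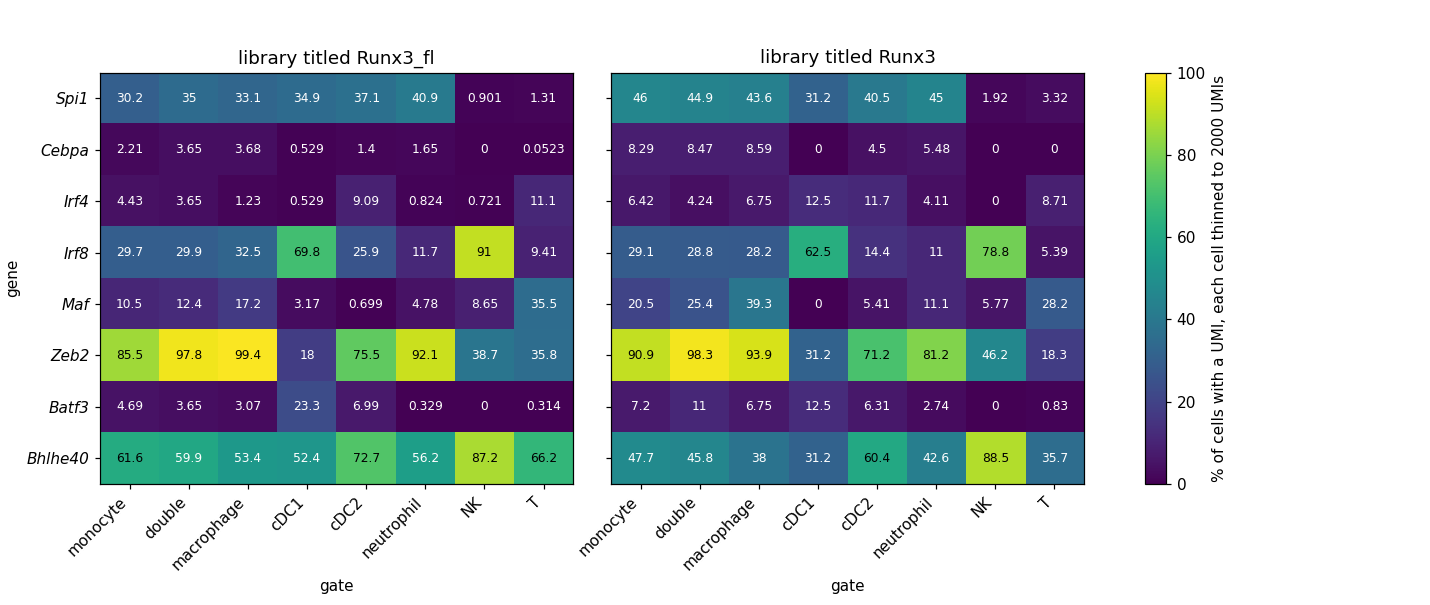
Percent of cells with at least 1 UMI of each gene after each cell was thinned to 2000 UMIs, by gate, in the library titled Runx3_fl (left) and the library titled Runx3 (right). Zeb2 is in 99.4% and 93.9% of macrophages, Irf8 in 69.8% of cDC1 and 91.0% of NK cells of the library titled Runx3_fl, and Cebpa in under 10% of every gate.

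The comparison between libraries asks whether these levels differ where Runx3 status may differ. Differences are log2 ratios of (CPM + 1), Runx3 over Runx3_fl, which understate the change of low genes. Of the 56 values for 8 genes in 7 gates, 19 were past 2-fold, and 18 of these were higher in the library titled Runx3 and 1 lower. With the median gene of each gate set to 0, 18 were past 2-fold, 12 higher and 6 lower. Past 2-fold were 1 of 8 genes in the monocyte gate, where 11.1% of all genes at 10 CPM or more were, 3 in the double gate (all genes 16.7%), 4 in the macrophage gate (18.3%), 2 in cDC2 (13.8%), 4 in neutrophils (21.5%), 2 in NK cells (11.1%) and 3 in T cells (21.5%). These counts include genes under 10 CPM in both libraries, namely Cebpa, Irf4 and Batf3 in NK cells and Cebpa and Batf3 in T cells. On the floor of 10 CPM that the background uses, 1 of 5 genes in NK cells and 1 of 6 in T cells were past 2-fold, and 16 of 51 values in all. The median gene was itself higher in the library titled Runx3 by 0.04 to 0.30, most in neutrophils. In the macrophage gate the median of the 8 genes was 0.75 against 0.19 for all genes.

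Cebpa differed most often, at 2-fold or more in all 7 gates. It was higher in the library titled Runx3 by 2.22 in monocytes (interval 2.01 to 2.68), 1.39 in the double gate (0.90 to 1.99), 1.58 in macrophages (1.10 to 2.18), 1.19 in cDC2 (0.39 to 2.22) and 1.11 in neutrophils (0.68 to 1.68). NK and T cells, which should lack it, were also higher, by 2.26 (interval 0.94 to 6.27) and 2.19, from levels under 1 CPM in the library titled Runx3_fl. These values rest on 3 and 4 UMIs in NK cells and 17 and 15 UMIs in T cells. Set to the median gene, the neutrophil value was 0.82 and no longer past 2-fold. With cells thinned to 2000 UMIs before gating, the cDC2 value was 0.51. Its relative Cebpb was higher by 1.15 in monocytes and 0.98 in macrophages and by 2.23 in T cells.

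Maf and Batf3 were also higher in the library titled Runx3. Maf differed by 0.89 in monocytes (interval 0.75 to 1.05), 1.15 in the double gate (0.89 to 1.43), 1.34 in macrophages (1.14 to 1.56), 1.73 in cDC2 (0.75 to 3.32) and 1.18 in neutrophils (0.92 to 1.50). In T cells, where its level is high in both, it differed by 0.16, and in NK cells by 0.56 (0.07 to 1.04). In the B gate Maf differed by 2.63 (2.35 to 3.46), or by 1.16 without cells holding a UMI of Mzb1. The 8 macrophage markers moved with Maf: they summed to 473 and 1208 CPM in the monocyte gate and to 3107 and 8763 CPM in the macrophage gate, in the order Runx3_fl and Runx3, with none at 0. The 6 monocyte markers summed to 1626 and 1216 CPM in the macrophage gate, also with none at 0, and the part of these markers in the result was not tested. Batf3 differed by 0.70 in monocytes, 1.10 in the double gate, 1.23 in macrophages (0.75 to 1.79), 0.59 in cDC2 and 0.52 in neutrophils, the last with an interval that held 0. It was also higher in T cells, by 1.93 (1.67 to 3.27), and in the B gate, by 2.11 (1.93 to 5.28). These started from 1.55 and 0.559 CPM in the library titled Runx3_fl. With cells thinned to 2000 UMIs before gating, the T cell value of Batf3 was 0. That T gate held 457 and 43 cells, so a gene this low could hardly be measured in it.

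Spi1 was higher by less, at 0.65 in monocytes, 0.48 in the double gate, 0.46 in macrophages, 0.37 in cDC2 and 0.47 in neutrophils. In T cells it was higher by 1.75 (interval 1.46 to 2.26). Marker sums of other cells moved in the same direction in that gate: the 8 macrophage markers summed to 32.9 CPM in T cells of the library titled Runx3_fl and 175 CPM in the library titled Runx3, and the 6 neutrophil markers to 46.5 and 294 CPM, with none at 0. Their part in the myeloid transcripts seen in T cells was not tested.

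Zeb2, Irf8 and Bhlhe40 were lower in the library titled Runx3 in every myeloid gate of 20 or more cells. Zeb2 differed by −0.54 in monocytes (interval −0.56 to −0.52), −0.85 in the double gate, −0.87 in macrophages (−0.92 to −0.83), −0.81 in cDC2 and −1.13 in neutrophils (−1.16 to −1.10). Irf8 differed by −0.31, −0.23, −0.37, −0.84 and −0.71 in the same order. Bhlhe40 differed by −0.21, −0.40, −0.69, −0.03 and −0.86, and its cDC2 interval held 0. Set to the median gene, Zeb2 was past 2-fold lower also in the double gate (−1.05) and in macrophages (−1.07), Irf8 in cDC2 (−1.02) and neutrophils (−1.01), and Bhlhe40 in neutrophils (−1.16). The direction was not particular to myeloid gates. In T cells Zeb2 differed by −0.40 (−0.50 to −0.29), Irf8 by −0.29 (−0.56 to −0.05) and Bhlhe40 by −0.71 (−0.80 to −0.62). In NK cells Irf8 differed by −0.43 (−0.55 to −0.31), whereas the intervals of Zeb2 (0.18, −0.01 to 0.37) and Bhlhe40 (0.01, −0.10 to 0.12) held 0.

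Irf4 was higher by 1.05 in macrophages (interval 0.46 to 1.75) and 1.44 in neutrophils (0.89 to 2.35), from 15.2 and 5.98 CPM. In cDC2, its main myeloid gate, it did not differ beyond counting error (−0.03, −0.41 to 0.35).

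**Figure D5:**
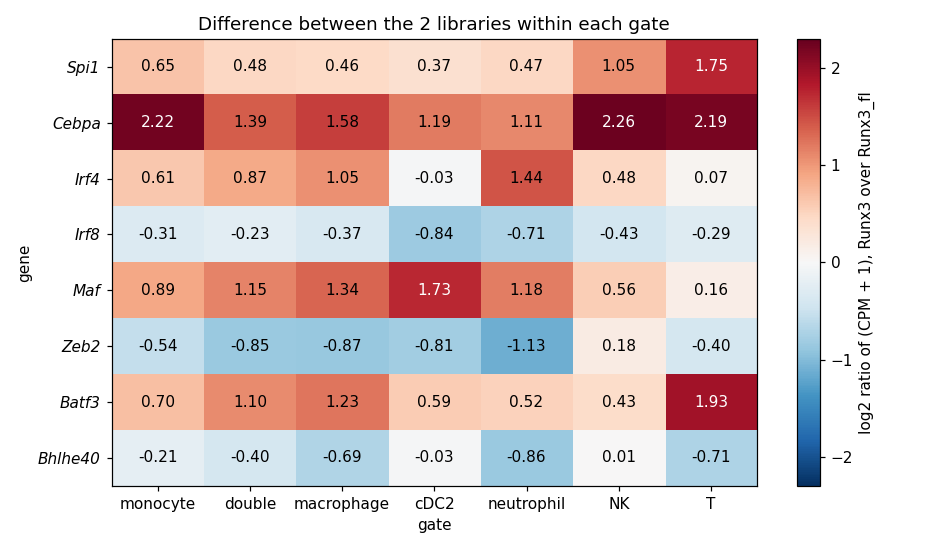
Log2 ratio of (CPM + 1), Runx3 over Runx3_fl, for 8 genes in 7 gates, with red for higher and blue for lower in the library titled Runx3. Cebpa is at 1.11 or more in each gate, and Zeb2, Irf8 and Bhlhe40 are below 0 in all 5 myeloid gates and in T cells. Each value rests on 1 library per group.

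Leaving out doubtful cells changed some of these values. With Csf1r required in the monocyte gate (412 and 333 cells), the NK markers summed to 209 and 101 CPM and the T markers to 33.0 and 26.8 CPM. The Irf4 difference in monocytes then was 1.60 in place of 0.61, and that of Maf 1.12 in place of 0.89, both now past 2-fold, and those of Cebpa (1.99), Spi1 (0.55), Batf3 (0.83), Irf8 (−0.25), Zeb2 (−0.71) and Bhlhe40 (−0.09) kept their direction. With all cells thinned to 2000 UMIs before gating, the monocyte differences were −0.81 for Irf4 and 0.18 for Maf, so neither was past 2-fold higher there. Without the neutrophil-gated cells that held a UMI of Elane, Mpo or Cebpe, genes of neutrophil precursors (638 and 532 cells left), Zeb2 differed by −0.63 and was no longer past 2-fold, Bhlhe40 by −0.37 and Irf8 by −0.34. Maf (1.67), Irf4 (1.90), Cebpa (1.36) and Batf3 (1.04) were then all past 2-fold. S100a8 still stood at 4051 and 10832 CPM in these cells, so the neutrophil gates remained unlike.

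Of 25 partners and paralogs of these factors, 20 were measured at 10 CPM or more in the macrophage gate, and 4 were past 2-fold higher and 2 lower in the library titled Runx3, where 14.0% of all genes in that gate were past 2-fold higher and 4.31% lower. Their median difference was 0.49 against 0.19 for all genes. Jun, which pairs with BATF proteins, stood at 98.7 and 443 CPM in macrophages. Batf2, a relative of Batf3, went against it, at 80.3 and 26.4 CPM, and so did Tfec, a macrophage factor, at 101 and 45.4 CPM. Zeb1, the paralog of Zeb2, was higher in macrophages (64.6 and 152 CPM) but lower in cDC2 (550 and 251 CPM). In monocytes it was at 267 and 124 CPM, and at 61.3 and 100 CPM once Csf1r was required. Spic, a relative of Spi1 found in macrophages that handle iron, was at 8.07 and 17.4 CPM.

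Of 24 entries in the list of known targets, 17 were measured in the macrophage gate, with 2 past 2-fold higher and 3 lower (all genes 14.0% and 4.31%). Mrc1, listed with MAF, stood at 83.0 and 243 CPM, and the C1q gene C1qc, at 593 and 1097 CPM, was short of 2-fold. Il10, listed with both MAF and BHLHE40, was lower in macrophages, at 325 and 245 CPM (log2 −0.41, interval −0.58 to −0.23). The IRF4 targets Ccr7 and Pdcd1lg2 were lower, at 282 and 81.4 CPM and at 39.5 and 13.5 CPM, while Irf4 itself was higher in that gate. Il1b, which BHLHE40 helps to express, stood at 5318 and 1829 CPM in macrophages and 6675 and 2230 CPM in neutrophils. Cadm1, a cDC1 gene, was at 111 and 264 CPM in macrophages. In cDC2, 17 targets were measured, with 3 higher and 3 lower (all genes 11.3% and 2.54%). On the higher side were Wdfy4 (148 and 319 CPM), Mgl2 (45.8 and 109 CPM) and Il10 (8.24 and 22.0 CPM). On the lower side were Ccr7 (470 and 220 CPM), Pdcd1lg2 (73.7 and 27.3 CPM) and Cadm1 (25.2 and 7.98 CPM). Mgl2 thus went against the IRF4 targets Ccr7 and Pdcd1lg2, and against Clec10a (162 and 98.4 CPM).

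The genes whose pattern over the gates was most like each factor were found from Pearson's r of log2(CPM + 1) over 18 points, 9 gates in 2 libraries, among about 4877 genes. The points share libraries and gates, so r is a description only. Spi1 was closest to Slc8b1 (r 0.98), and Csf2ra, a GM-CSF receptor chain gene from the list of its targets, was also among its nearest (0.97). Cebpa was closest to Lrrc25, Lrp1 and Fcgr1, the high-affinity IgG receptor used to mark macrophages (0.96 each). Zeb2 was closest to Rnf149, App and Fth1 (0.97), and Batf3 to Stxbp6 (0.97), with Cnpy3 (0.96) also among its nearest. Bhlhe40 followed 1700025G04Rik, Lrrfip1 and the NK receptor gene Klrk1 (0.94). Neighbours were looser, at 0.87 to 0.86 for Irf8 (Itgb1, Pcyt1a, Lrrk1), 0.86 for Maf (Dusp6, Actn4, Ski) and 0.84 to 0.79 for Irf4 (Foxn3, Btla, Cyp51). Between Spi1 and Cebpa r was 0.84, and between Spi1 and Zeb2 0.79.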

How the data were processed

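Single-cell RNA was captured from gut lamina propria cells labelled cd11b+ with the 10x 3′ kit, in 1 library per group. The deposited matrices hold raw UMI counts per gene and barcode, which the authors made with Cell Ranger 7.1.0 per the file headers; the submitters' processing notes name mm10 and Seurat 4. Whether intronic reads were counted is not given in the sources used here, and it bears most on long genes such as Zeb2. No doublet caller was run here: cells in more than 1 gate (12.3% and 13.7% of kept cells) were put in no class, apart from the double gate, and myeloid gates held no cell with 2 or more UMIs of Cd3e, Ncr1, Cd79a, Mzb1 or Siglech. The cells left out for passing more than 1 gate were unlike in the libraries titled Runx3_fl and Runx3. The monocyte and T gates together took 762 and 29 cells, and the monocyte and neutrophil gates together 185 and 409. Counts were summed by gate and divided by the gate's total (CPM). Intervals are exact Poisson, Clopper-Pearson or, for ratios, conditional binomial at 95%; a ratio has a pseudocount of 1 CPM and its interval none. The ratio step was tested on simulated data. Python 3.11.15, numpy 2.4.6, scipy 1.17.1 and pandas 2.3.3 were used. The named genes are the 8 factors and the members of 2 lists past 2-fold, with the 3 nearest genes by pattern; the factors and lists were chosen with earlier results of these data known. A few of the genes this rule names are not reported here. Alternatives covered gate stringency, cell filters, thinning, cells in several gates, averaging and scaling.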

Additional observations from a re-analysis of the deposited data

Results flagged for a closer look

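Some genes differed between the libraries in opposite directions in different gates, and these differences between gates were not tested. Irf8 was higher in the library titled Runx3 in the B gate (log2 0.51, interval 0.37 to 0.66) and lower in cDC2 (−0.84). Zeb2 was higher in the B gate (1.83) and lower in neutrophils (−1.13), and Bhlhe40 was higher in the B gate (1.23) and lower in neutrophils (−0.86). The B gate held 357 and 1137 cells at median depths of 19293 and 6466 UMIs. Without its cells that held a UMI of the plasma cell gene Mzb1, an alternative chosen after seeing the data, 75 and 676 cells were left, and the B values were 0.74 for Irf8, 0.66 for Zeb2 and −0.05 for Bhlhe40. Without cells holding Elane, Mpo or Cebpe, the neutrophil values were −0.63 for Zeb2 and −0.37 for Bhlhe40.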

How the results depend on the processing

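The number of values past 2-fold, 19 of 56, lay between 16 and 24 under the alternatives, which differ in how many gates reached 20 cells. The low end was 16 of 40 values in 5 gates (cells thinned before gating). The high end was 24 of 64 values in 8 gates (Csf1r required in the monocyte gate). The number of genes with the same leading gate (6) lay between 5 and 8, and the number above NK and T cells (4) between 4 and 5. Of 840 single values under 11 alternatives, 1 of which was chosen after seeing the data, 791 kept their sign, and of 315 whose main value was past 2-fold 267 stayed past it and 4 turned. With cells thinned to 2000 UMIs before gating, 457 and 43 cells were left in the T gate. The T cell differences of Spi1 and Cebpa between the libraries became −0.16 and −1.07, and at this depth such low genes rest on few UMIs. Batf3 in cDC1 over cDC2 of the library titled Runx3 became −5.27, with 1 cell left in that cDC1 gate. With cells of several gates assigned by priority, Maf in cDC1 over cDC2 of the library titled Runx3 became 0.32. The cause was not tested in any of these. Thinning before gating also gave 0.38 for Irf8 in neutrophils and 0.01 for Zeb2 in monocytes, against −0.71 and −0.54. No paired analysis was possible because each group has 1 library, and for the same reason no library could be left out. Depth limits the low genes most: Cebpa in the monocyte gate of the library titled Runx3_fl rests on 96 UMIs.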
